A study of Mus musculus with 10 samples.

Results

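The genes described are 10 well-known targets of the tumour suppressor p53, a transcription factor encoded in mice by Trp53. They were chosen by name: every row of the count table whose gene symbol is Cdkn1a, Mdm2, Bax, Bbc3, Ccng1, Eda2r, Zmat3, Phlda3, Sesn2 or Trp53inp1. All 10 were found among 55487 genes, and all 10 were among the 16565 genes with enough counts to be tested. Their values come from RNA-seq of polyadenylated RNA from 10 primary tumours of the pancreas, taken from KPF mice (C57BL/6J background) that were used when 6 to 12 weeks old. The comparison asked how tumours with deleted Grem1, the gene of the secreted BMP antagonist Gremlin 1, differ from tumours with wild-type Grem1. The 5 wild-type (Grem1wt/wt) tumours came from mice that received peanut oil daily on 5 days, beginning at 5 weeks. The 5 tumours labelled Grem1-deleted (Grem1∆/∆) came from mice given tamoxifen at 100 mg/kg on the same schedule, so that genotype and tamoxifen cannot be told apart. KPF is a mouse model of pancreatic cancer, and the labels spell out neither its alleles, the state of Trp53 included, nor the driver of the recombinase that deleted Grem1.

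p53 is held at a low level by the ubiquitin ligase Mdm2, and DNA damage or oncogene signalling releases it from this control. It then binds DNA at paired copies of a short palindromic motif and switches on genes for cell cycle arrest, cell death, repair and metabolism, including Mdm2 itself. Loss of p53 function is frequent in pancreatic cancer. Many p53 targets are also transcribed without p53, so their RNA is present in cells that lack it.

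The motif that p53 binds was searched in promoter windows of these genes. RefSeq windows of 300 bases (250 before and 50 after an annotated transcription start, build GRCm38.p6) were matched for 8 of the 10 genes (all but Zmat3 and Trp53inp1), in 11 windows. The p53 consensus motif, of 10 bases, is its own reverse complement, so 1 search covers both strands. Below, capitals mark the 4 core bases of each copy of the motif. A full site has 2 adjacent copies, and the first pair of sites shown holds at most 1 mismatch to the consensus.
Cdkn1a, full site: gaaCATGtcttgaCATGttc
Ccng1, full site: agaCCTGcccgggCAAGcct
Bbc3, full site with more mismatches: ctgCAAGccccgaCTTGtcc
Bax, single motif: aggCAAGctt
Mdm2, single motif: gaaCTTGcct
The Cdkn1a site lies at chr17:29090928-29090947 on the plus strand and has 1 mismatch. It ends 32 bases before the start of the upstream Cdkn1a transcript, and a further single motif without mismatch, ggaCTAGctt, lies at chr17:29090906-29090915. The Ccng1 site lies at chr11:40755462-40755481 on the minus strand, also with 1 mismatch. The Bbc3 site lies at chr7:16309486-16309505 on the plus strand and has 3 mismatches. Full sites with at most 3 mismatches are in 1.38% of all promoter windows and were in 3 of the 11 windows of these genes. The single motifs of Bax, at chr7:45467090-45467099, and of Mdm2, at chr10:117710935-117710944, are both on the minus strand. A full site with at most 1 mismatch is in 0.067% of all 32851 promoter windows and was in 2 of the 11 windows of these genes. The single motif without mismatch is in 8.36% of all windows and was in 4 of the 11. Neither was found in the windows of Eda2r, Phlda3 and Sesn2, which says only that these letters are not in these windows.

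The libraries held 10159891 to 18571519 estimated counts, and levels below are in CPM, the usual read-depth unit, on scaled library sizes. Grem1 itself was not lower in the tumours labelled deleted, with a mean of 40.2 ± 42.1 CPM there against 19.1 ± 15.2 CPM in the wild-type group (SD, 5 tumours each), so the groups are named by their labels alone. The labels call the samples bulk tumour tissue and also mention sorted cells. All 8 epithelial, all 8 fibroblast, all 8 macrophage and all 8 endothelial markers had counts above 0 in every library. Labelled-deleted tumour 1 stood apart. Its 8 epithelial markers summed to 1869 CPM against 3589 to 6106 CPM in the other 9 tumours, its 8 fibroblast markers to 8007 against 14758 to 27913 CPM, and its 15 cell division genes to 1424 against 327 to 648 CPM. Labelled-deleted tumour 2 held 3448 CPM of the 8 intestinal epithelium markers, against 41.7 to 124 CPM elsewhere. In bulk samples fewer cells of a type and less RNA per cell cannot be told apart.

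**Figure D1:**
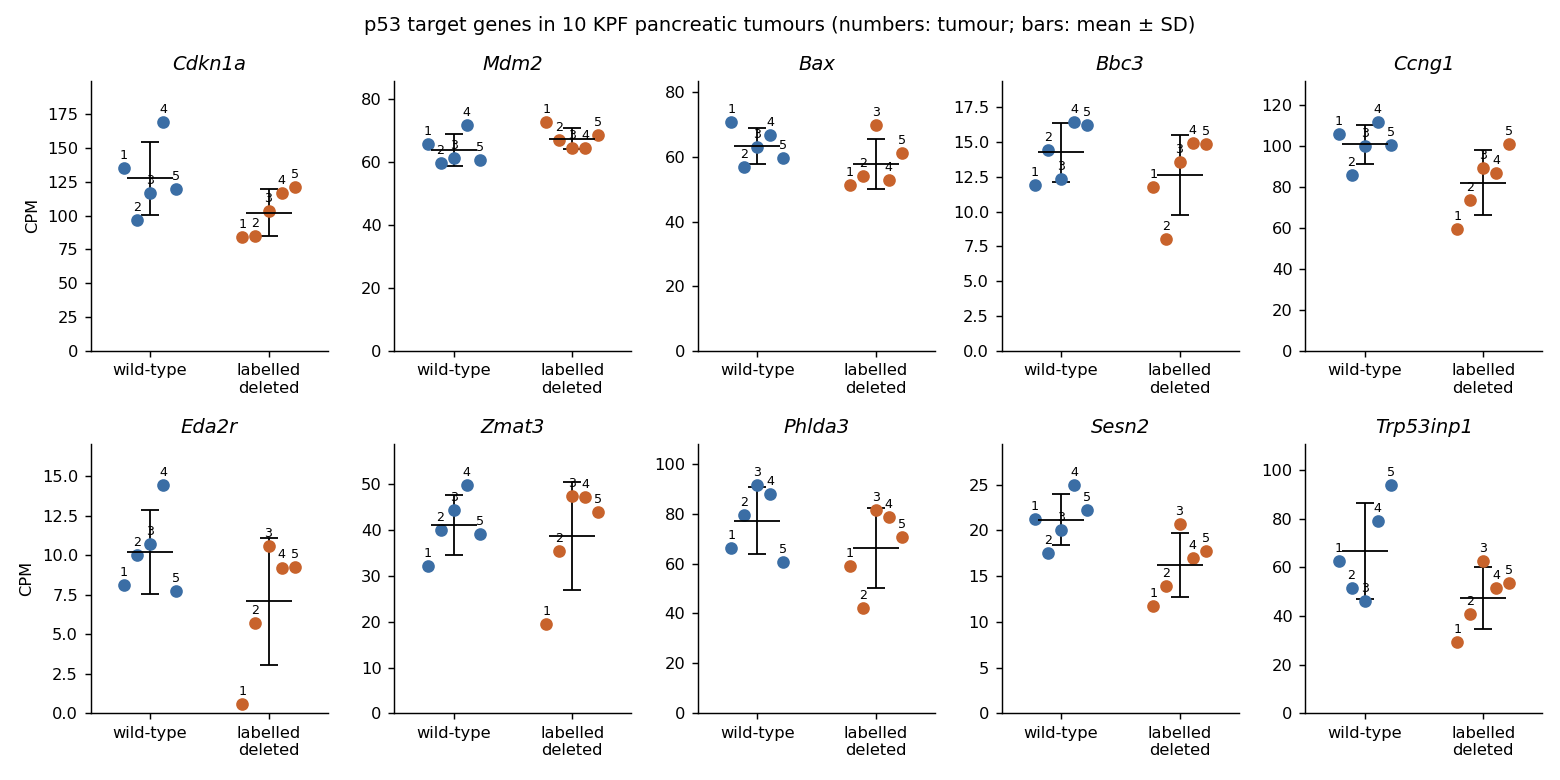
Level of each of the 10 p53 target genes in CPM (vertical axis, from 0) in 5 wild-type tumours (blue) and 5 tumours labelled deleted (orange). Numbers name the tumour, and bars give the mean and SD; the groups overlap for every gene, and labelled-deleted tumour 1 is the lowest of all 10 tumours for 7 of the genes.

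Between the groups, 9 of the 10 genes had a lower fitted level in the tumours labelled deleted and Mdm2 alone a higher one, but none passed the test. Of all genes tested, 44.9% had a lower fitted level. The median log2 fold change, labelled deleted over wild-type, was -0.26 over the 10 genes and 0.03 over all tested genes. An adjusted p under 0.05 (edgeR quasi-likelihood test, adjusted over all 16565 genes) was reached by 0 of the 10 and by 0% of all genes, and the adjusted p of the 10 ran from 0.759 to 0.930. DESeq2 called 7 genes and limma-voom 0, none of them among the 10. At an unadjusted p under 0.05 in edgeR there was 1 of the 10, Sesn2, which was lower, against 5.93% of all genes (2.46% lower and 3.47% higher). Without labelled-deleted tumours 1 and 2 the direction was lower in 7 of the 10, against 50.7% of all genes, and the median was -0.07. These tumours were among the 2 lowest for 9 and 7 of the 10 genes. Leaving them out therefore raises that group for most of these genes, whatever the reason for their low values. Without wild-type tumour 4, the highest for 6 of the 10, 9 were lower and the median was -0.18. Markers of several cell types also had lower fitted levels, those of others higher ones, and their part in the result was not tested. All 8 epithelial markers had a lower fitted level in the tumours labelled deleted (median log2 fold change -0.46), as had all 8 macrophage (-0.53) and all 8 endothelial markers (-0.42), and none passed the test. The macrophage markers summed to 2971 to 5170 CPM in wild-type tumours and 1414 to 4226 CPM in those labelled deleted. The endothelial markers summed to 347 to 735 CPM and 186 to 704 CPM, and both sums were lowest in labelled-deleted tumours 1 and 2. Without these 2 tumours 8 of 8 epithelial, 7 of 8 macrophage and 5 of 8 endothelial markers were lower. All 8 B cell and all 8 T cell markers went the other way, with all 10 tumours and without these 2. Their median log2 fold changes over all tumours were 1.16 and 0.78. Their sums were highest in labelled-deleted tumour 3, at 330 and 108 CPM. Of 8 acinar markers 5 were higher, and of 8 fibroblast markers 3. None of these passed the test.

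Gene positions below are those of build GRCm38. The arrest gene Cdkn1a (ENSMUSG00000023067, chr17:29090976-29100727, plus strand) encodes p21, an inhibitor of cyclin-dependent kinases. Wild-type tumours 1 to 5 held 135, 96.5, 117, 169 and 119.98 CPM of it, and labelled-deleted tumours 1 to 5 held 84.3, 85.1, 104, 117 and 121 CPM. The groups overlapped, with labelled-deleted tumours 1 and 2 below every wild-type tumour and wild-type tumour 4 the highest. The means were 128 ± 27.1 and 102 ± 17.3 CPM (SD, n = 5), and the log2 fold change was -0.32 (SE 0.16, 95% interval -0.68 to 0.04, edgeR adjusted p = 0.759). It was -0.17 (SE 0.16) without labelled-deleted tumours 1 and 2, and -0.20 without wild-type tumour 4. Exons of Cdkn1a share 273 bases with AC167363.2 on the opposite strand. The strand setting of the counting is unknown here.

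Ccng1 (ENSMUSG00000020326, chr11:40748552-40755311, minus strand) encodes cyclin G1, which recruits a phosphatase to Mdm2. It stood at 106, 85.9, 100.2, 112 and 100.3 CPM in wild-type tumours 1 to 5. The tumours labelled deleted had 59.7, 73.7, 89.1, 86.7 and 101 CPM. Again labelled-deleted tumours 1 and 2 lay below every wild-type tumour, while tumour 5 of that group lay among the wild-type values. The log2 fold change was -0.30 (SE 0.14, 95% interval -0.60 to 0.00, edgeR adjusted p = 0.759), and -0.13 (SE 0.10) without labelled-deleted tumours 1 and 2.

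Mdm2 (ENSMUSG00000020184, chr10:117688875-117710758, minus strand), the ligase that marks p53 for destruction, varied least of the 10. Its wild-type values were 65.9, 59.6, 61.4, 71.6 and 60.7 CPM, and its values in the tumours labelled deleted were 72.7, 67.0, 64.6, 64.5 and 68.6 CPM. All 10 tumours thus lay within a 1.22-fold range, and the highest was labelled-deleted tumour 1, the lowest tumour for 7 other members. The SD of its log2 CPM over the 10 tumours was 0.10, and 2.73% of tested genes had a smaller one. Its log2 fold change was 0.08 (SE 0.07, 95% interval -0.08 to 0.24, edgeR adjusted p = 0.792). Leaving out wild-type tumour 2 gave 0.04, leaving out wild-type tumour 4 gave 0.12, and leaving out labelled-deleted tumour 1 gave 0.05.

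Among the cell death genes, Bax (ENSMUSG00000003873, chr7:45461697-45466898, minus strand) encodes a protein that opens the outer mitochondrial membrane. It measured 70.8, 56.8, 62.9, 66.8 and 59.7 CPM in wild-type tumours 1 to 5, and 51.2, 54.1, 69.9, 52.9 and 61.3 CPM in those labelled deleted. Labelled-deleted tumours 1, 2 and 4 were below every wild-type tumour, and tumour 3 was near the top of the wild-type range. Its log2 fold change was -0.13 (SE 0.10, edgeR adjusted p = 0.770), with -0.22 without labelled-deleted tumour 3 and -0.05 (SE 0.11) without labelled-deleted tumours 1 and 2. Of its exon bases 192 are shared with the same-strand gene Gm45808.

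Bbc3 (ENSMUSG00000002083, chr7:16308393-16318205, plus strand) encodes PUMA, which frees and activates Bax. Wild-type tumours held 11.9, 14.4, 12.3, 16.4 and 16.2 CPM, and those labelled deleted 11.7, 8.02, 13.5, 14.9 and 14.9 CPM. Here labelled-deleted tumour 2, not tumour 1, was the lowest. The log2 fold change was -0.17 (SE 0.19, edgeR adjusted p = 0.815), and it was -0.05 without labelled-deleted tumour 2 and 0.02 (SE 0.14) without labelled-deleted tumours 1 and 2.

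Phlda3 (ENSMUSG00000041801, chr1:135766119-135769136, plus strand), a small protein that restrains the kinase Akt, showed the same lowest tumour. Its wild-type values were 66.3, 79.2, 91.5, 87.9 and 60.6 CPM, and in the tumours labelled deleted it stood at 59.2, 42.2, 81.3, 78.7 and 70.6 CPM. Labelled-deleted tumours 1 and 2 were again below the wild-type range and the other 3 within it. For Phlda3 the log2 fold change was -0.22 (SE 0.19, edgeR adjusted p = 0.784), -0.09 without labelled-deleted tumour 2, and -0.01 (SE 0.14) without tumours 1 and 2 of that group.

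Eda2r (ENSMUSG00000034457, chrX:97333840-97377216, minus strand), a receptor of the tumour necrosis factor receptor family that binds ectodysplasin A2, was the least abundant member and the one with the widest range. It held 8.10, 10.02, 10.7, 14.5 and 7.76 CPM in wild-type tumours, and 0.62, 5.75, 10.6, 9.23 and 9.27 CPM in those labelled deleted. Labelled-deleted tumour 1 had 7 counts, with an exact 95% Poisson interval of 0.25 to 1.28 CPM that covers counting error only, and the next lowest tumour had 5.75 CPM. The highest tumour was 23.2 times the lowest, and 2.52 times the lowest of the other 9. The log2 fold change of -0.52 (SE 0.53, 95% interval -1.70 to 0.65, edgeR adjusted p = 0.807) compares with -0.23 (SE 0.23) without labelled-deleted tumour 1, and with -0.08 (SE 0.21) without tumours 1 and 2.

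The remaining genes act in stress responses. Zmat3 (ENSMUSG00000027663, chr3:32334792-32366014, minus strand) encodes an RNA-binding zinc finger protein that alters splicing. Its level was 32.2, 39.99, 44.3, 49.8 and 39.02 CPM in wild-type tumours and 19.4, 35.5, 47.3, 47.1 and 44.0 CPM in those labelled deleted. Only labelled-deleted tumour 1 was below the wild-type range, and tumours 3 and 4 were near its top. The log2 fold change of -0.09 (SE 0.23, edgeR adjusted p = 0.930) was 0.08 (SE 0.14) without labelled-deleted tumour 1 and -0.01 (SE 0.24) without wild-type tumour 4.

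Sesn2 (ENSMUSG00000028893, chr4:132492032-132510501, minus strand), a leucine sensor that restrains the growth kinase complex mTORC1 and is also induced by the stress factor ATF4, had the smallest p of the members. Wild-type tumours held 21.2, 17.49, 19.98, 24.96 and 22.2 CPM, and those labelled deleted 11.7, 13.9, 20.7, 16.9 and 17.7 CPM. Labelled-deleted tumours 1, 2 and 4 were below every wild-type tumour. The means were 21.2 ± 2.76 and 16.2 ± 3.46 CPM (SD, n = 5). This was a log2 fold change of -0.39 (SE 0.16, 95% interval -0.75 to -0.02), with an unadjusted p = 0.0385 and an adjusted p = 0.759 in edgeR. It was -0.20 (SE 0.13) without labelled-deleted tumours 1 and 2. Without any 1 of 6 tumours (wild-type 1, 4 and 5, labelled-deleted 1, 2 and 4) none of the 10 genes had an unadjusted p under 0.05. The number was 4 without wild-type tumour 2 and 4 without labelled-deleted tumour 3. It was 3 without labelled-deleted tumour 5 and 1 without wild-type tumour 3.

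Trp53inp1 (ENSMUSG00000028211, chr4:11156431-11174379, plus strand), a stress-induced nuclear protein that promotes p53 activity and autophagy, spread widely within both groups. Its wild-type values were 62.4, 51.6, 46.2, 79.1 and 93.9 CPM, and in the tumours labelled deleted it had 29.3, 40.8, 62.5, 51.4 and 53.4 CPM. Wild-type tumours 4 and 5 were the highest, and labelled-deleted tumours 1 and 2 lay below the wild-type range. The log2 fold change was -0.49 (SE 0.24, 95% interval -1.02 to 0.04, edgeR adjusted p = 0.759), and -0.26 (SE 0.23) without labelled-deleted tumours 1 and 2. The 8 acinar markers summed to 9063 CPM in wild-type tumour 5 and to 7636 CPM in labelled-deleted tumour 5, against at most 1888 CPM in the others, and their part in the Trp53inp1 values was not tested.

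**Figure D2:**
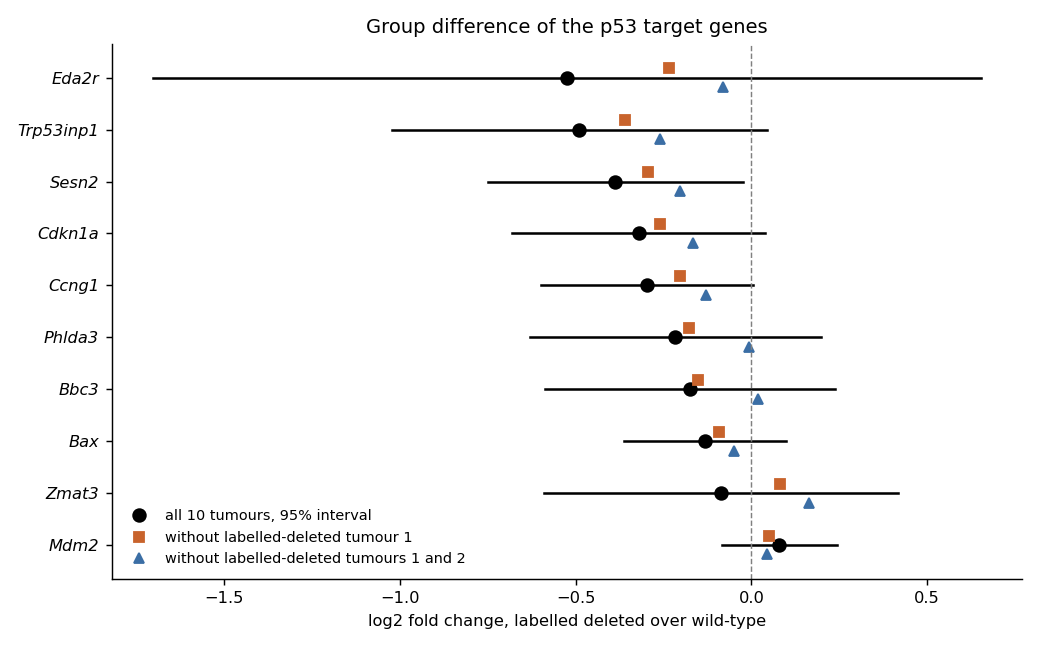
Log2 fold change of labelled-deleted over wild-type tumours (horizontal axis) for each gene, with its 95% interval over all 10 tumours (black), without labelled-deleted tumour 1 (orange squares) and without labelled-deleted tumours 1 and 2 (blue triangles). The interval of Sesn2 alone leaves out 0, and no gene passed after adjustment over all genes; the values without both tumours lie closer to 0 than the black dots for every gene except Zmat3.

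Levels of different genes were compared per kilobase of annotated exon. In this unit, given as CPM per kb with the SD over 10 tumours, the order was Phlda3 (46.0 ± 9.64), Bax (38.5 ± 4.44), Cdkn1a (32.3 ± 7.11), Ccng1 (26.04 ± 4.51), Mdm2 (12.9 ± 0.877), Trp53inp1 (8.81 ± 2.88), Bbc3 (6.32 ± 1.19), Sesn2 (5.38 ± 1.14), Zmat3 (3.49 ± 0.794) and Eda2r (1.47 ± 0.616). The lowest tumour for Ccng1, at 17.0 CPM per kb, was above the highest for Mdm2, at 14.3 CPM per kb, so the 4 most abundant genes were apart from the other 6 in every tumour. All other neighbours in this order overlapped in their ranges. Within single tumours, however, Cdkn1a was above Ccng1 in 10 of 10, Sesn2 above Zmat3 in 10 of 10 and Zmat3 above Eda2r in 10 of 10. Phlda3 exceeded Bax in 8 of 10 tumours and Bbc3 exceeded Sesn2 in 8 of 10. All annotated exons were counted in these lengths, up to 11.4 kb for Zmat3, and which of them the tumours used was not measured.

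Labelled-deleted tumour 1 was the lowest of all 10 tumours for 7 of the 10 genes (Cdkn1a, Bax, Ccng1, Eda2r, Zmat3, Sesn2 and Trp53inp1) and the highest for Mdm2. It was the lowest for 29.4% and the highest for 27.9% of all tested genes. Relative to the median of the other 9 tumours it held 6.72% of Eda2r, 44.1% of Zmat3, 54.8% of Trp53inp1, 58.8% of Sesn2, 59.6% of Ccng1, 72.0% of Cdkn1a and 113% of Mdm2. Eda2r alone of the 10 was at or under 10% of that median, as were 2.46% of tested genes, and 1.45% had a share as low as its own. The share of Zmat3 or a lower one was found in 17.3% of tested genes. The epithelial markers Epcam and Cdh1 stood at 32.2% and 32.6% of the median of the other 9 in this tumour, and Krt18 at 52.3%. Eda2r, with 7 counts in this tumour, had a lower share than these epithelial genes, which were named after their values were seen. The part of the cell make-up of this tumour in these values was not tested.

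**Figure D3:**
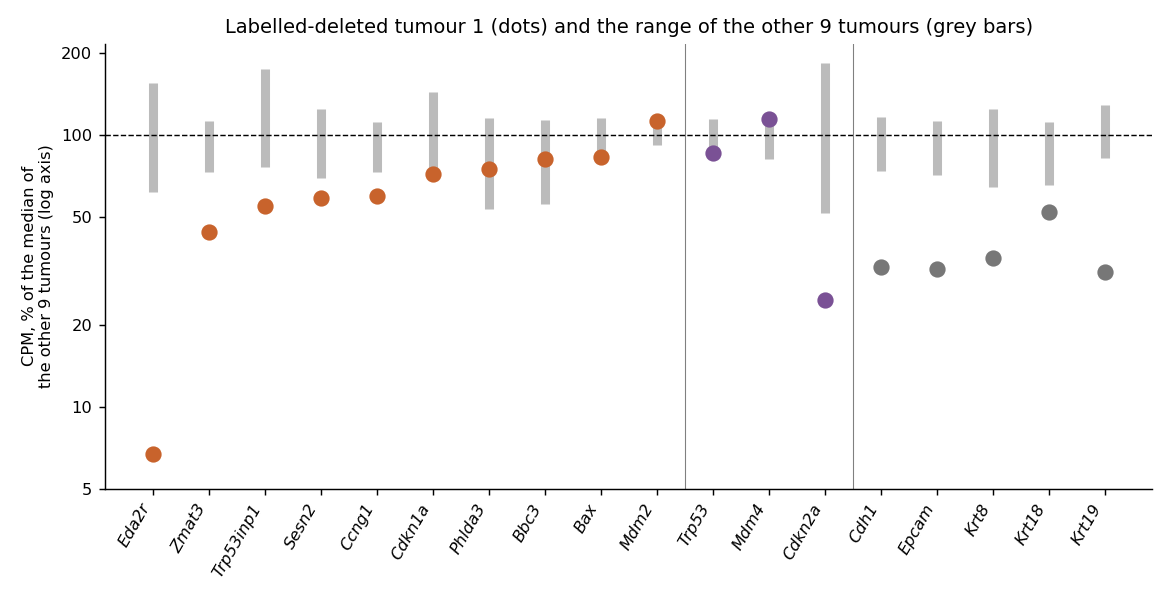
CPM of labelled-deleted tumour 1 as a percentage of the median of the other 9 tumours (dots, log axis), with the range of those 9 as grey bars, for the 10 p53 targets (orange), 3 genes of p53 control (purple) and 5 epithelial markers (grey). Eda2r is at 6.72%, Mdm2 at 113% just above the grey bar, and the epithelial markers between 31.2% and 52.3%.

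Labelled-deleted tumour 2 was the lowest or second lowest for 7 of the 10 genes. The share of all tested genes for which it ranked so low was not counted, so whether 7 of 10 is unusual is unknown. Wild-type tumour 4 was the highest for 6 of the 10 (Cdkn1a, Bbc3, Ccng1, Eda2r, Zmat3 and Sesn2). Wild-type tumour 4 was the highest for 6.54% of all tested genes. It also had the highest sum of epithelial markers, at 6106 CPM, and of macrophage markers, at 5170 CPM, and their part in its values was not tested. The summed level of the 10 genes ran from 512 to 692 CPM in wild-type tumours and from 400 to 563 CPM in those labelled deleted.

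Over all 10 tumours most pairs of the genes varied in the same direction, and the size of this relation rested in part on labelled-deleted tumours 1 and 2. Of 45 pairs, 37 had a positive Pearson r of log2 CPM, with a median of 0.59, and all 8 negative pairs included Mdm2. Without labelled-deleted tumours 1 and 2 the median over the other 8 tumours was 0.28, with 37 of 45 positive and none of the 8 negative pairs including Mdm2. After adjustment over the 45 pairs, 10 passed 0.05 by Pearson r, 8 by Spearman rho and 6 by both (permutation tests, 100000 resamples, two-sided). The same counts were not made for pairs of other tested genes. Whether the numbers of positive and passing pairs are unusual for these genes is therefore unknown. The closest pair in rank was Cdkn1a with Ccng1. Its rho was 0.99 (permutation p = 2e-05, adjusted 0.0009) and its r was 0.88 (permutation p = 0.00044, adjusted 0.0066). Without wild-type tumour 4 and labelled-deleted tumour 1, the tumours farthest from the median of Cdkn1a, r was 0.92, and around the group means it was 0.83.

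Sesn2 and Trp53inp1 had an r of 0.90 (permutation p = 0.00041, adjusted 0.0066) and a rho of 0.90 (permutation p = 0.00079, adjusted 0.0118), and r was 0.76 without labelled-deleted tumours 1 and 2. Ccng1 and Sesn2 had an r of 0.93 (permutation p = 0.0002, adjusted 0.0066) and a rho of 0.88 (permutation p = 0.00155, adjusted 0.0174), with 0.74 for r without the same tumours. For Eda2r and Zmat3 r was 0.94 (permutation p = 0.0008, adjusted 0.0090) and rho 0.85 (permutation p = 0.00258, adjusted 0.0232), and r was 0.72 without them. Eda2r and Phlda3 differed between the measures. Their rho was 0.96 (permutation p = 4e-05, adjusted 0.0009), whereas r was 0.50 (permutation p = 0.115, adjusted 0.172) with labelled-deleted tumour 1 and 0.92 without it.

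Over all 10 tumours Mdm2 did not follow the others. Its r with the other 9 genes ran from -0.47 to 0.10, with 8 of 9 negative. With Cdkn1a it had an r of 0.10 (permutation p = 0.788, adjusted 0.806) and a rho of 0.05 (permutation p = 0.890, adjusted 0.910). Without labelled-deleted tumour 1, r with the other genes ran from -0.09 to 0.48 and 7 of 9 were positive. Without that tumour and wild-type tumour 4, r ran from -0.41 for Phlda3 to 0.11 for Bax, and most were negative. The sign of these values therefore depended on which tumours were left out. Without labelled-deleted tumours 1 and 2 all 9 were positive, from 0.15 to 0.77, with the highest for Cdkn1a. Among the 36 pairs without Mdm2 all had a positive r over 10 tumours, from 0.27 to 0.94, and without labelled-deleted tumour 1 they ran from 0.03 to 0.92. Without tumours 1 and 2 of that group 28 were positive and 8 negative, from -0.49 for Phlda3 with Trp53inp1 to 0.87 for Cdkn1a with Ccng1.

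**Figure D4:**
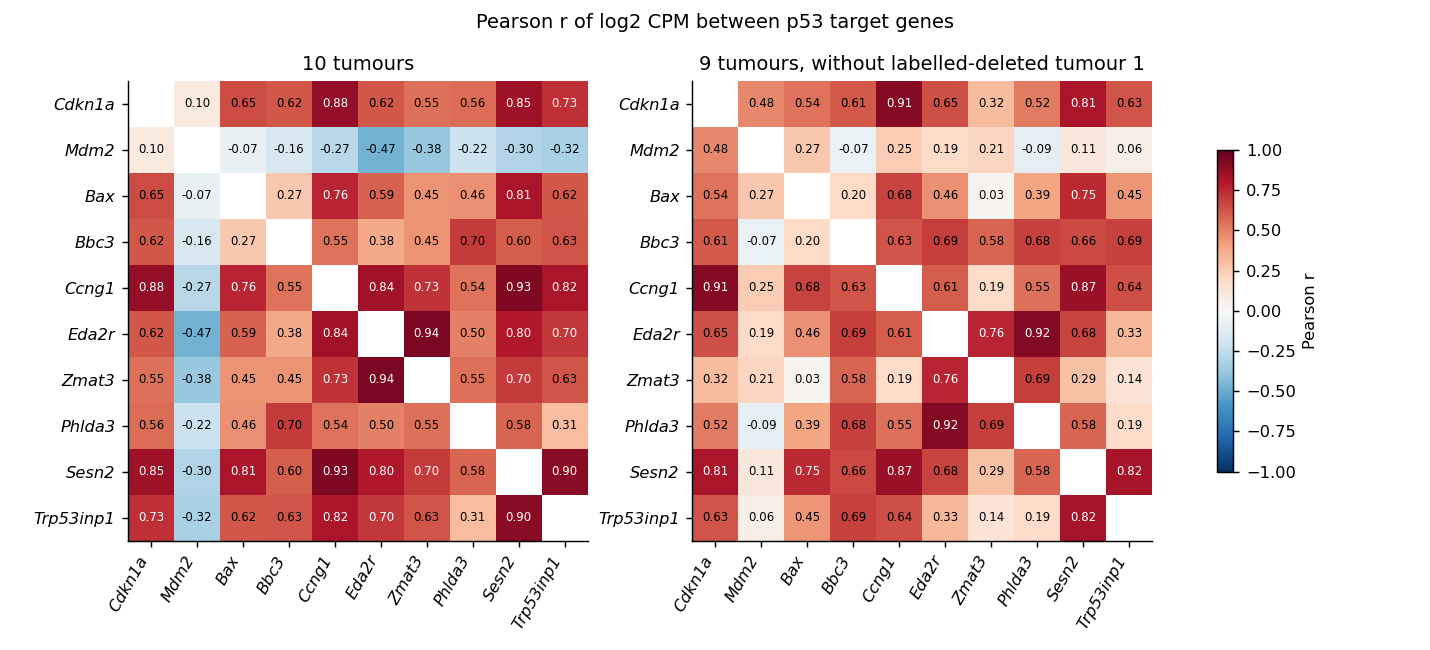
Pearson r of log2 CPM for every pair of the 10 genes over 10 tumours (left) and over 9 tumours without labelled-deleted tumour 1 (right), with red for positive and blue for negative values. The row of Mdm2 is blue or pale on the left and mostly pale red on the right, and Cdkn1a with Ccng1 is at 0.88 and 0.91.

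**Figure D5:**
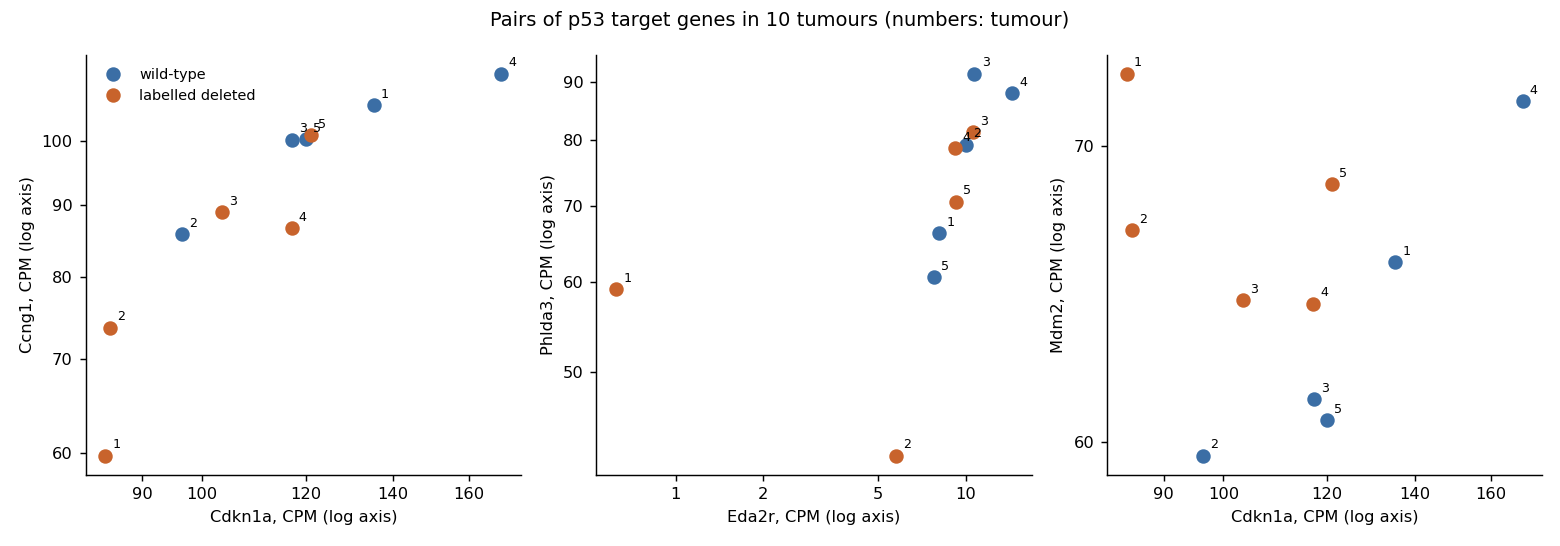
Levels in CPM on log axes of Ccng1 against Cdkn1a, Phlda3 against Eda2r and Mdm2 against Cdkn1a, with each dot 1 tumour (blue wild-type, orange labelled deleted, numbered). The first pair rises together, labelled-deleted tumour 1 lies far to the left in the second, and the third shows no common order.

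The tested genes outside the 10 whose pattern was most like theirs were ranked by Pearson r of log2 CPM over the 10 tumours, out of 16555 genes. For the mean of the 10 genes these were Acer2 and Onecut3, at 0.98 and 0.97, and D630003M21Rik at 0.97. For Cdkn1a they were Ubald1 at 0.97, Mrc2 at 0.94 and Colgalt1 at 0.94, and for Ccng1 they were Stk16 at 0.99, Notch4 at 0.98 and Dusp22 at 0.97. For Mdm2 they were Fbxo30 and Mis12 at 0.95 and Kbtbd2 at 0.90. For Eda2r they were Lrp3, Septin4 and Sbk1, each at 0.99, which were 0.91, 0.93 and 0.88 without labelled-deleted tumour 1. For Sesn2 they were Hfe at 0.99, Rab3il1 at 0.98 and Stard8 at 0.97. For Bax they were AI662270 and Snx20 at 0.97 and BC028528 at 0.96, and for Bbc3 they were Zfp677 at 0.96, Pih1d2 at 0.94 and Gm15910 at 0.92. For Zmat3 they were Car11 at 0.98 and Fstl4 and Col15a1 at 0.97, and for Phlda3 Mrpl48 at 0.93, Gm45151 at 0.92 and Zfp521 at 0.91. For Trp53inp1 they were Ccdc141 and Cd84 at 0.97 and Kcng2 at 0.96. These are the highest of many values, are given as a description and carry no p.

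Genes that control p53 showed no group difference that passed the test. Of 13 such genes 11 were tested, 7 with a higher and 4 with a lower fitted level in the tumours labelled deleted, and 0 passed. Their median log2 fold change was 0.04. Trp53 held 98.98, 73.5, 94.5, 91.2 and 85.6 CPM in wild-type tumours and 74.0, 84.2, 86.1, 83.1 and 97.8 CPM in those labelled deleted, so its RNA was present in every tumour and the groups overlapped. Its log2 fold change was -0.06 (SE 0.10, edgeR adjusted p = 0.882). A count per gene does not show which Trp53 allele or exons the reads came from. Mdm4, a relative of Mdm2 that blocks p53, ran from 89.2 to 120.4 CPM in wild-type tumours and from 88.4 to 126 CPM in those labelled deleted. Cdkn2a, whose product Arf inhibits Mdm2, ran from 94.2 to 334 CPM in wild-type tumours. In those labelled deleted it ran from 45.1 CPM in tumour 1, the lowest of all, to 328 CPM. The smallest p in the list belonged to kinases of the DNA damage response. On the log2 scale Chek2 was at -0.26 (SE 0.17), Atm at 0.30 (SE 0.20), Chek1 at 0.25 (SE 0.31) and Atr at 0.10 (SE 0.14).

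Other p53 targets had fitted levels on both sides. Of 16 targets of arrest and cell death, 7 had a higher and 9 a lower fitted level, 0 passed, and the median log2 fold change was -0.02. Ei24, an endoplasmic reticulum protein, had the smallest p. Its values were 85.8, 92.5, 88.9, 89.8 and 81.0 CPM in wild-type tumours and 71.0, 71.5, 81.5, 85.8 and 78.8 CPM in those labelled deleted, with a log2 fold change of -0.17 (SE 0.08, edgeR adjusted p = 0.759). Pmaip1, the death gene Noxa, was at -0.35 (SE 0.22), the checkpoint gene Sfn at -0.53 (SE 0.34) and the nuclease gene Aen at -0.10 (SE 0.11). Of 12 tested targets of repair and metabolism, 5 were higher and 7 lower, 0 passed, and the median was -0.08. Among them the xylulose reductase Dcxr was at -0.40 (SE 0.18), the DNA damage sensor Xpc at -0.23 (SE 0.12), the long non-coding RNA Pvt1 at 0.33 (SE 0.20) and the glutaminase Gls2 at -0.81 (SE 0.58).

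Among relatives of the 10 genes, overlap of the groups was looked at only for those with the smallest p and for Mdm4. It was absent for 1 of these, Bmf. Of 21 tested relatives, 11 were higher and 10 lower, 0 passed, and the median was 0.00. Bmf, a BH3-only death protein like PUMA, held 46.5, 46.8, 41.1, 49.7 and 44.5 CPM in wild-type tumours and 23.7, 22.8, 35.8, 35.8 and 38.7 CPM in those labelled deleted. All 5 tumours labelled deleted were below all 5 wild-type tumours, as in 0.435% of tested genes, and all 5 were above in 0.495%. On the log2 scale Bmf differed by -0.55 (SE 0.16, edgeR adjusted p = 0.759). Bok, a relative of Bax, was at -0.32 (SE 0.12) and Cdkn1c, the p21 relative p57, at -1.06 (SE 0.53).

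Cell division genes, many of which p53 and p21 keep low, had a higher fitted level in 15 of 15, against 55.1% of all tested genes, with a median log2 fold change of 0.46, and 0 passed. Without labelled-deleted tumours 1 and 2, 14 of 15 were lower and 1 higher, against 49.3% higher of all genes, and the median was -0.37. These were the 2 tumours with the highest sums of these genes. Leaving them out therefore lowers that group for most of these genes, whatever the reason for their high values. Over all 10 tumours Foxm1 was at 0.86 (SE 0.43), Ccnb1 at 0.73 (SE 0.48), Birc5 at 0.53 (SE 0.37) and E2f1 at 0.46 (SE 0.31). Labelled-deleted tumours 1 and 2, the lowest in most of the p53 targets, held the highest sums of these genes, at 1424 and 648 CPM. The other 3 tumours of that group held 327, 386 and 341 CPM, and the wild-type tumours 377 to 565 CPM. Labelled-deleted tumour 1 was also the lowest for 29.4% and the highest for 27.9% of all tested genes. Whether the low targets and the high sums are linked was not tested. The targets of ATF4 in the integrated stress response, which include another route to Sesn2, went both ways with 6 higher and 5 lower, 0 passed, and their median was 0.04. Those with the smallest p were Ddit3 at 0.45 (SE 0.18), Ppp1r15a at 0.40 (SE 0.17), Psat1 at 0.46 (SE 0.22) and Slc7a11 at -0.34 (SE 0.24). The part of ATF4 in the Sesn2 values was not tested.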

How the data were processed

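The deposited data are estimated counts for each gene in 10 libraries, 7.96% of them not whole, and a separate file for every tumour that holds log2 values normalized by the authors with a transformation that is not named. As tools, with no role or order, the submitters' processing notes list RSEM 1.3.3, HISAT2 2.2.1, DESeq2 1.32.0, FastQC 0.11.9 and bcl2fastq 2.0, and as build mm10. The library kit was KAPA mRNA HyperPrep, per the labels' protocols. Annotation release and strand setting: not given in the sources used here. Groups and tumour numbers come from the sample titles, and the series' design text calls the tumours biological replicates. The count column of labelled-deleted tumour 1 lacks part of its title's number and was matched by its remaining suffix. Its ranks were closest to that tumour's own log2 file (Spearman 0.976, against 0.985 to 0.989 for the other 9).

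After rounding, estimated counts were filtered with filterByExpr (minimum count 10), scaled with TMM and compared with edgeR 4.0.16 (quasi-likelihood F test, robust, Benjamini-Hochberg over all tested genes, threshold 0.05). Standard errors come from the F statistic. Log2 CPM has a prior count of 2. The fit was tested on simulated data. Libraries of a group differed by more than sampling noise (chi-square per degree of freedom at least 25.5). Exon lengths are from GENCODE M21 (GRCm38). Alternatives used DESeq2 1.42.0, limma 3.58.1 and other scalings, filters, blocks and left-out libraries. R was 4.3.3 and Python 3.11.15.

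The 10 genes and all lists were chosen with earlier results of these data known. Genes named are the 10, up to 4 genes with the smallest p of each pathway list together with Trp53, Mdm4 and Cdkn2a, and the 3 genes with the most similar pattern for each of the 10 and their mean. Epcam, Cdh1 and Krt18 fall outside this rule and were named after their values were seen.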

Additional observations from a re-analysis of the deposited data

Results flagged for a closer look

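Eda2r in labelled-deleted tumour 1, at 0.623 CPM from 7 counts, was flagged as far from its group by Dixon's criterion on log2 CPM. Its gap to the next tumour was 0.772 of the whole range of the group, against a critical value of 0.71 for 5 samples. It was the only such library in 26 groups of 5 (the 10 p53 targets with Trp53, Mdm4 and Cdkn2a, in both groups). Chance gives about 1 in 20 groups, so 1 flag in 26 is no more than chance alone would give.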

How the results depend on the processing

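None of the 10 genes was called under any of the alternatives run, and the lowest adjusted p of any of them was 0.5075. The count of genes past the threshold over all genes was 0 in each fit except DESeq2, which called 7. At an unadjusted p under 0.05 there were 1509 of 31198 genes (4.84%) in DESeq2, 983 of 16565 (5.93%) in edgeR and 1563 of 31660 (4.94%) in edgeR with no low-count filter. Leaving out 1 library at a time gave 0 genes each time. Without labelled-deleted tumours 1 and 2 the median of the 10 genes was -0.0659, against -0.26 with all tumours and a range of -0.32 to -0.18 when 1 library was left out. In the same fit Bbc3 was at 0.0177 and Zmat3 at 0.1646. Zmat3 was also positive with the tumour ID number as a block, at 0.0933. Labelled-deleted tumours 1 and 4 share their ID numbers, 25 and 39, with no other tumour. This block therefore takes both out of the group comparison. The values of Zmat3 when 1 library was left out ran from -0.1805 to 0.0801, the highest without labelled-deleted tumour 1. The other 8 genes kept their direction in all 20 alternatives each. The titles do not say whether their tumour numbers pair the tumours. Same-numbered tumours had deviation correlations of -0.016 to 0.387, against -0.466 to 0.43 for tumours with different numbers. These overlapping ranges do not settle whether the tumours are paired. With these numbers as a replicate block 0 genes passed, 781 genes had an unadjusted p under 0.05, the median of the 10 genes was -0.27 and Eda2r was at -0.80. With the tumour ID number as a block 0 genes passed, 638 had an unadjusted p under 0.05, none of the 10 among them, the median was -0.20, Eda2r was at -0.22 and Bax at -0.04. The median r between the genes was 0.59 with all tumours, 0.55 without labelled-deleted tumour 1, 0.2817 without labelled-deleted tumours 1 and 2 (an alternative chosen after seeing the data, as are the list counts without these tumours) and 0.60 with the deposited log2 values. Eda2r had 7 counts in 1 library, and the other 9 genes had at least 113 estimated counts in every library.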
